A study of Mus musculus with 4 samples.

Results

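The genes described here are 8 genes known for their rise in reactive astrocytes, *Gfap*, *Vim*, *Nes*, *Serpina3n*, *Steap4*, *Cd44*, *S1pr3* and *Tnc*, out of 40091 genes counted in the series. They were chosen by name, with no threshold on their values, and all 8 were present in the count tables. Single-nucleus RNA sequencing (snRNA-seq) was run on thalamic tissue of WT C57BL6 mice aged 7 to 8 weeks, 7 days after an injection into the right ventral posteromedial and posterolateral nuclei. Mice of the COL group were injected with Coll IV, a type IV collagenase (0.01 U in 10 nl), which digests vessel walls and causes a local haemorrhage, and the NS group received normal saline. Each group had 2 libraries (NS 1, NS 2, COL 1 and COL 2), each a pool of 3 mice, so a p-value measures the spread between pools. No gene was deleted or added in any group. Tissue taken around a haemorrhage also holds blood-borne and infiltrating cells, and the injection track itself was shared by both groups.

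Astrocytes answer tissue injury by a programme called reactive astrogliosis. Signals such as the interleukin 6 family act through the transcription factor STAT3, the cells enlarge their cytoskeleton of intermediate filaments (GFAP, vimentin, nestin), secrete protease inhibitors and matrix proteins (SERPINA3N, tenascin C) and raise surface receptors for matrix and lipid signals (CD44, S1PR3). Several of these genes are also used by other cells, since vimentin and CD44 are abundant in macrophages, nestin in dividing progenitors and endothelium, and tenascin C in oligodendrocyte precursor cells (OPC).

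The gene models lie on GRCm38 (mm10) in the GENCODE M21 annotation, all protein coding. *Gfap* (ENSMUSG00000020932) spans chr11:102887336-102900912 on the minus strand, *Vim* (ENSMUSG00000026728) chr2:13573927-13582826 on the plus strand and *Nes* (ENSMUSG00000004891) chr3:87971078-87980451 on the plus strand. *Serpina3n* (ENSMUSG00000021091) spans chr12:104406729-104414329 on the plus strand and *Steap4* (ENSMUSG00000012428) chr5:7960457-7982213 on the plus strand. *Cd44* (ENSMUSG00000005087) spans chr2:102811141-102901665 on the minus strand, *S1pr3* (ENSMUSG00000067586) chr13:51408639-51422797 on the plus strand and *Tnc* (ENSMUSG00000028364) chr4:63959785-64047015 on the minus strand. Exons cover 68.4% of the span of *Nes* and 53.3% of that of *Vim*, but only 7.49% of *Cd44* and 8.91% of *Tnc*. Whether intronic reads were counted is not given in the sources used here, so levels are compared between libraries and cell types for one gene at a time, never between genes.

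Under all 13 alternatives, some on nearly the same nuclei, 4 of the 8 genes were called higher in COL than NS astrocytes. How many of all genes were called under every alternative is not given here, so this count is a description. The promoters of these 4 genes, *Gfap*, *Vim*, *Serpina3n* and *Cd44*, are shown. Each is the RefSeq window of 300 bases on GRCm38.p6, from 250 bases before the annotated start to 50 after it, written 5′ to 3′ on the gene's own strand, at chr11:102897151-102897450 (minus), chr2:13574061-13574360 (plus), chr12:104406458-104406757 (plus) and chr2:102901616-102901915 (minus). Capitals mark matches on either strand to the STAT motif TTCNNNGAA, the AP-1 motif TGANTCA or the TATA box TATAAA.
Gfap: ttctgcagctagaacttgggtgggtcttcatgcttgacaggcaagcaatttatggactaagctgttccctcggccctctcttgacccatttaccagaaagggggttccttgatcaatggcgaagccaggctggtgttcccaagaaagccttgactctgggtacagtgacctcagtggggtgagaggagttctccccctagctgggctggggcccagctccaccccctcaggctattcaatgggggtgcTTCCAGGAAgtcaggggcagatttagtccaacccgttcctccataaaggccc
Vim: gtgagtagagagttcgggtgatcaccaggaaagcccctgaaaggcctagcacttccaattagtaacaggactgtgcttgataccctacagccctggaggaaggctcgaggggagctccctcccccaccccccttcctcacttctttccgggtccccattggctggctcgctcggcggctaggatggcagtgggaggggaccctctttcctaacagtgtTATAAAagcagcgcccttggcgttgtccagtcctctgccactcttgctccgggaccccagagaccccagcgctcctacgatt
Serpina3n: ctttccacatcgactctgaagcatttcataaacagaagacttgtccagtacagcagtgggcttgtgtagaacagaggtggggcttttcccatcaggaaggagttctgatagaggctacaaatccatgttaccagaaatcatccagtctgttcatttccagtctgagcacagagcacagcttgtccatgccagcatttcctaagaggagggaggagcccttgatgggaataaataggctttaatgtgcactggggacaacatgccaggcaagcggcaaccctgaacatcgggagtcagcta
Cd44: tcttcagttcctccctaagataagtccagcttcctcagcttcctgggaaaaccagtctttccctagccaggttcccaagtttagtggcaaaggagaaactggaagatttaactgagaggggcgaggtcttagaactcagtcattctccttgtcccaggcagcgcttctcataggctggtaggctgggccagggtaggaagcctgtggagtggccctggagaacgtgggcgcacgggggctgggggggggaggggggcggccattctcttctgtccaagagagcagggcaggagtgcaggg
The *Gfap* window held 1 STAT match, beginning 2 bases before the start, and the *Vim* window held 1 TATA box, beginning 32 bases before the start. The *Serpina3n* and *Cd44* windows held no match to any of the 3 motifs. Over the 8 genes, 2 had a STAT match (*Gfap* and *Steap4*), 3 a TATA box (*Vim*, *Steap4* and *Tnc*) and 0 an AP-1 match, while 8.3%, 13.6% and 7.81% of 32851 promoters of the same length held them. A match is a run of letters and not a measured binding site.

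The 4 libraries held 5931 to 10422 nuclei after the study's filter and 68723738 to 77546840 unique molecular identifiers (UMIs, 1 per captured RNA molecule). Nuclei were given a cell type from 112 marker genes, none of them one of the 8 genes, by a rule written after the nuclei had been seen. Astrocytes numbered 1163, 1041, 156 and 242 in NS 1, NS 2, COL 1 and COL 2. They were 11% ± 1.44 (SD, n = 2) of nuclei in the NS group and 3.25% ± 0.872 (n = 2) in the COL group, and the groups did not overlap, although a two-sided exact permutation test of 2 against 2 libraries cannot go below p = 0.33, the value it gave. The summed level of the 14 astrocyte markers in these nuclei was 20900, 19800, 19500 and 18700 CPM (UMIs per 1000000 UMIs of the summed nuclei), and *Aqp4*, *Slc1a2* and the other markers were above 0 in every library. Markers of other cells were present too: the 10 macrophage markers summed to 8.64 and 13.5 CPM in NS and 27 and 31.5 CPM in COL astrocytes, against 4710 to 5130 CPM in macrophages, with 1 to 5 of the 10 at 0. The 11 oligodendrocyte markers summed to 1660, 2170, 901 and 1930 CPM, the 10 neuronal markers to 982 to 1410 CPM and the 7 OPC markers to 321, 365, 616 and 697 CPM; their part in the results below was not tested. The median depth of an astrocyte was 3658, 3281, 5781.5 and 6688 UMIs, and shares of nuclei are therefore given after thinning each nucleus to 1000 UMIs.

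In astrocytes, 6 of the 8 genes were higher in the COL group (*Gfap*, *Vim*, *Nes*, *Serpina3n*, *Cd44* and *Tnc*), none was lower, *S1pr3* did not pass the test and *Steap4* had too few UMIs to be tested. The test was edgeR's quasi-likelihood test on UMI sums per library, with Benjamini-Hochberg adjustment over all 13959 genes that passed the filter on low counts and a threshold of 0.05. Of these genes, 15.5% were called in either direction and 7.11% were higher in the COL group, with a median log2 fold change of -0.02. A further 8.42% were lower in the COL group. The filter asked for 3.77 CPM in at least 2 libraries. *Vim*, *Nes* and *Serpina3n* reached it in both COL libraries and in 0, 0 and 1 NS libraries, so they were tested only because of their COL levels, and the count of members called is a description. *Gfap*, *Cd44*, *S1pr3* and *Tnc* reached it in all 4 libraries. Without the filter all 8 genes were called higher, where 1213 of 27647 genes were. These included *Steap4*, with UMIs in 1 library only, so this fit does not set *Vim*, *Nes* and *Serpina3n* apart.

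**Figure D1:**
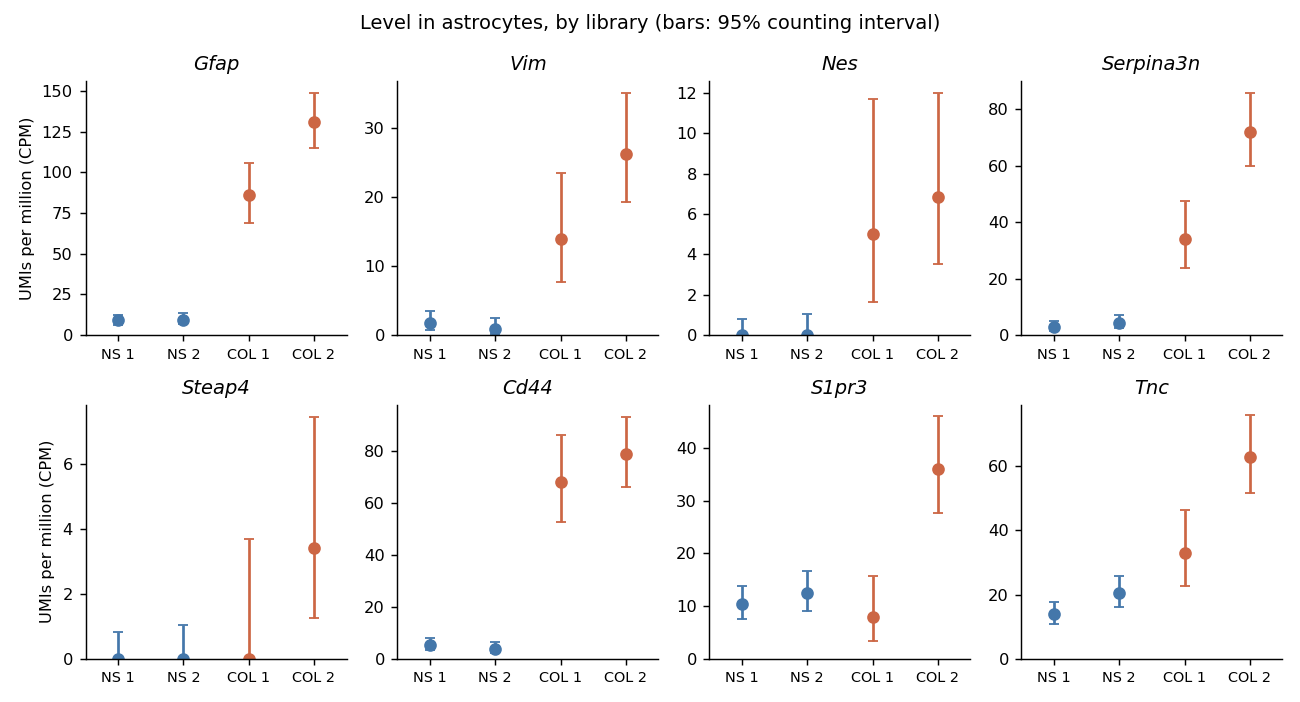
Level of each gene in astrocytes (CPM, with its exact 95% Poisson interval, which covers counting error only) in each library of the NS (blue) and COL (orange) groups, 1 panel per gene with its own axis from 0. *Gfap*, *Vim*, *Nes*, *Serpina3n*, *Cd44* and *Tnc* lay higher in both COL libraries than in both NS libraries, while *S1pr3* in COL 1 lay below both NS libraries.

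The 3 intermediate filament genes come first. *Gfap*, which encodes the filament that defines fibrous and reactive astrocytes, was at 9.08 and 9.56 CPM in the NS and 86.1 and 131 CPM in the COL libraries, from 41, 34, 86 and 229 UMIs. Both COL libraries lay far above both NS libraries, with a log2 fold change of 3.63 ± 0.25 (SE) and an edgeR adjusted p of 7.49e-05. *Vim*, the vimentin filament of astrocytes, macrophages and vessel cells, was at 1.77 and 0.844 CPM in NS and 14 and 26.3 CPM in COL astrocytes. The *Vim* groups did not overlap, with a log2 fold change of 3.98 ± 0.49 (edgeR adjusted p = 0.00135). *Nes*, the progenitor filament nestin, had 0 UMIs in both NS libraries and 5 and 12 UMIs, or 5 and 6.86 CPM, in the COL libraries. Set against a floor of 3 UMIs over the NS group, *Nes* was 16.6-fold higher in the COL group. This ratio leaves out the counting error of the COL group, so it is not a lower limit. DESeq2 gave *Nes* no adjusted p.

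The secreted inhibitor and the metalloreductase differed in how well they could be read. *Serpina3n*, a serine protease inhibitor of the acute phase, was at 2.88 and 4.22 CPM in NS and 34 and 72.1 CPM in COL astrocytes. The *Serpina3n* groups did not overlap, and the log2 fold change was 4.02 ± 0.40 (edgeR adjusted p = 0.000737). In astrocytes COL 2 was higher than COL 1 for each of the 8 genes, those described below included. *Steap4*, which reduces iron and copper at the membrane, had 0 UMIs in NS 1, NS 2 and COL 1 and 6 UMIs in 3 nuclei of COL 2, or 3.43 CPM. The *Steap4* groups overlap at 0, and all its UMIs came from 1 library, 4 of the 6 from 1 nucleus. Without the filter on low counts *Steap4* was called higher in the COL group (edgeR adjusted p = 0.0471).

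Of the surface receptors, *Cd44* rose and *S1pr3* split the COL libraries. *Cd44*, the receptor for hyaluronan and osteopontin, was at 5.31 and 3.94 CPM in NS and 68.1 and 78.9 CPM in COL astrocytes, with a log2 fold change of 4.04 ± 0.26 (edgeR adjusted p = 7.49e-05). The spread of *Cd44* between the COL libraries was small beside the distance between the groups. *S1pr3*, a receptor for sphingosine 1-phosphate, was at 10.4 and 12.4 CPM in NS, 8.01 CPM in COL 1 and 36 CPM in COL 2. COL 1 lay below both NS libraries and COL 2 above them, and the log2 fold change of *S1pr3* was 1.15 ± 0.46 (edgeR adjusted p = 0.112). Without COL 2 it was -0.41 and without COL 1 it was 1.71 (adjusted p = 0.00284), so leaving out 1 library changed its direction or its call. It was also called higher without NS 2, with a replicate block, under the stricter marker rule (1.52, adjusted p = 0.0259) and without the filter on low counts (1.10, adjusted p = 0.00644).

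*Tnc*, the matrix glycoprotein tenascin C, was at 13.9 and 20.5 CPM in NS and 33 and 62.9 CPM in COL astrocytes. The *Tnc* groups did not overlap, with a log2 fold change of 1.60 ± 0.32 (edgeR adjusted p = 0.00895). Without COL 2 the *Tnc* change was 1.04 with an adjusted p of 0.0776, which ended the call. With astrocytes taken from clusters of nuclei in place of the marker rule, the change of *Tnc* was -0.27 (adjusted p = 0.683) and that of *S1pr3* was -0.40 (adjusted p = 0.632), so the direction of both genes depended on which nuclei were counted.

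The nuclei behind this dependence were looked for by cluster. In Seurat clusters built without the 8 genes, 142 of 156 astrocytes of COL 1 and 218 of 242 of COL 2 lay in 1 cluster, and 1156 of 1163 and 1036 of 1041 NS astrocytes in another, so that each group had its own leading cluster. The 14 and 24 COL astrocytes outside it, 8.97% and 9.92% of COL astrocytes with 11.4% and 15.1% of their UMIs, carried 67.6% and 79.7% of the *Cd44* UMIs. They carried 48.5% and 86.4% of the *Tnc* UMIs, 75% and 71.4% of the *S1pr3* UMIs, 64.3% and 63% of the *Vim* UMIs and 80% and 83.3% of the few *Nes* UMIs. For *Gfap* the shares were 36% and 33.6%, and for *Serpina3n* 23.5% and 24.6%. Since any gene can follow the clusters, these shares are a description with no test.

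Inside the leading cluster of the COL group, *Gfap* was at 62.1 and 102 CPM and *Serpina3n* at 29.4 and 64 CPM, both well above the NS libraries. *Cd44* was there at 24.9 and 18.9 CPM, *Vim* at 5.65 and 11.4 CPM and *Tnc* at 19.2 and 10.1 CPM. *Tnc* thus lay within or below the NS range of 13.9 to 20.5 CPM. *Cd44* and *Vim* lay above the NS leading cluster (5.13 and 3.68 CPM, and 1.78 and 0.849 CPM). *Cd44* was not far above its level in neurons of the same libraries, 16 and 14.6 CPM, and COL neurons averaged 5.4 ± 3.13 CPM (SD, n = 2) of *Vim*. Outside the leading cluster of the COL group, *Gfap* was at 272 and 292 CPM, *Cd44* at 403 and 417 CPM and *Tnc* at 140 and 360 CPM. The nuclei outside were deeper, with medians of 9534.5 and 10144 UMIs against 5703 and 6421.5 inside. Their summed astrocyte markers were lower, 11200 and 9710 CPM against 20600 and 20300 CPM, while OPC markers (491 and 557 against 632 and 722 CPM), neuronal markers (1030 and 910 against 1460 and 1190 CPM) and macrophage markers (17.5 and 34.1 against 28.2 and 31 CPM) were not higher in both libraries. All these markers also served to name the nuclei, and nuclei fitted better by a pair of types had been left out. Levels of other cells' markers were thus partly fixed beforehand and cannot show whether mixtures remain. Markers of further cell types were not compared between these nuclei. The doublet caller, which marks a set number of nuclei per library, marked 0 COL astrocytes. Of the COL 1 and COL 2 nuclei it marked, 85.4% and 93% were already called mixed. What the nuclei outside the leading cluster are was not tested. Most of those outside, 11 and 17 nuclei, were in a cluster that could not be named from the markers, since 51.2% of its 467 nuclei were of mixed identity. A further 5 of the 24 nuclei of COL 2 lay in a cluster named for OPC, with 212 CPM of *Tnc* and 358 CPM of *Cd44*. Among these 5, 1 nucleus held 4 of the 6 *Steap4* UMIs.

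**Figure D2:**
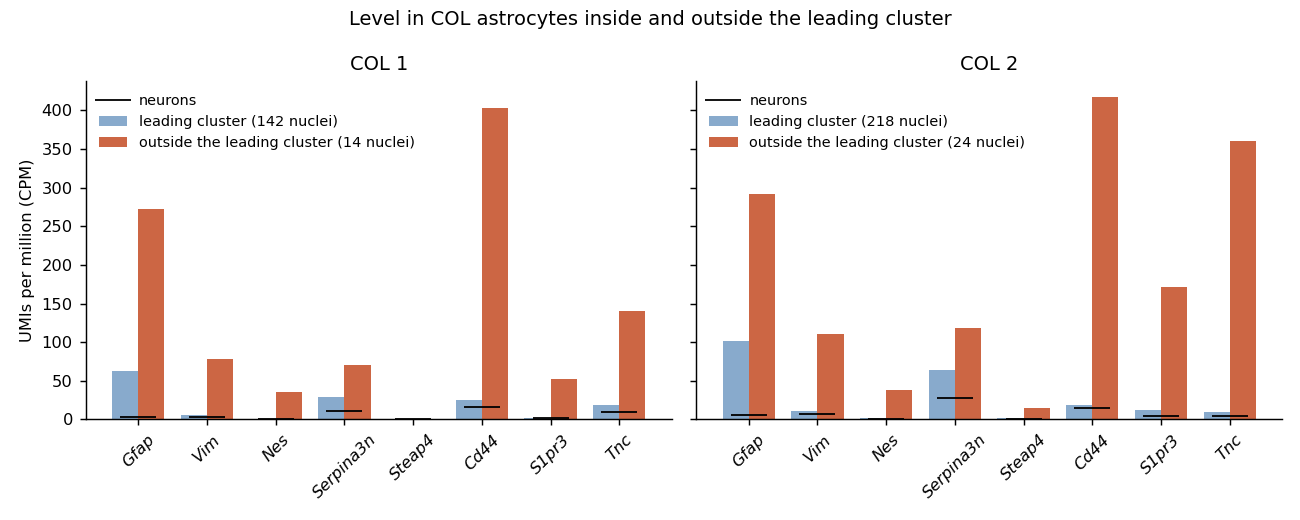
Level of each gene (CPM) in COL 1 and COL 2 astrocytes inside (blue bars) and outside (orange bars) the leading cluster, with the level in neurons of the same library as a black line. *Cd44* stood at 403 and 417 CPM outside against 24.9 and 18.9 CPM inside, whereas *Serpina3n* was at 70.1 and 118 CPM outside against 29.4 and 64 CPM inside.

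Counted by nuclei, the genes were found in a minority of COL astrocytes. After thinning to 1000 UMIs (0 to 8 shallower astrocytes per library left out), a *Gfap* UMI was seen in 0.604% and 1.16% of NS and 7.1% and 9.5% of COL astrocytes. *Cd44* was seen in 0.604% and 0.194% of NS and 5.16% and 3.72% of COL astrocytes, and *Serpina3n* in 0.345% and 0.0968% against 1.94% and 8.26%. *Tnc* was seen in 1.04% and 1.55% against 3.87% and 2.07%. For these 4 genes both COL shares lay above both NS shares (two-sided exact permutation p = 0.33, the smallest that 2 against 2 allows). How many of all genes separate in this way is not given here, so the count of 4 is a description. Without thinning, *Gfap* UMIs were seen in 37 of 1163 and 30 of 1041 NS and 37 of 156 and 73 of 242 COL astrocytes.

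For the other 4 genes the COL shares overlapped the NS shares. *Vim* was seen in 2.07% of COL 2 and in 0 of 155 astrocytes of COL 1. By the 95% interval this allows a UMI in up to 2.35% of nuclei, at this thinned depth and for counting error only. Without thinning, *Vim* was seen in 9 of 156 COL 1 astrocytes (5.77%) and 10.7% of those of COL 2. *Nes* was seen in 1.94% of COL 1 and 0 of 242 nuclei of COL 2 after thinning, which allows up to 1.51% at that depth. Without thinning it was seen in 10 of 242 (4.13%) of COL 2. *S1pr3* was seen in 1.21% and 1.74% of NS and 0.645% and 3.31% of COL astrocytes, and *Steap4* in 1 nucleus of COL 2. Neurons, which should lack *Gfap*, had a *Gfap* UMI in 0.0619% and 0.0487% of NS and 0.395% and 0.785% of COL nuclei thinned alike. Neurons of the COL libraries had a *Serpina3n* UMI in 1.47% and 2.86% of nuclei and a *Cd44* UMI in 1.33% and 1.29%. The share in neurons of the same library lay within the 95% interval of the astrocyte share for *Vim* in both COL libraries, for *Serpina3n* and *S1pr3* in COL 1 and for *Nes* in COL 2, so these shares could not be told apart from those in neurons at this depth.

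**Figure D3:**
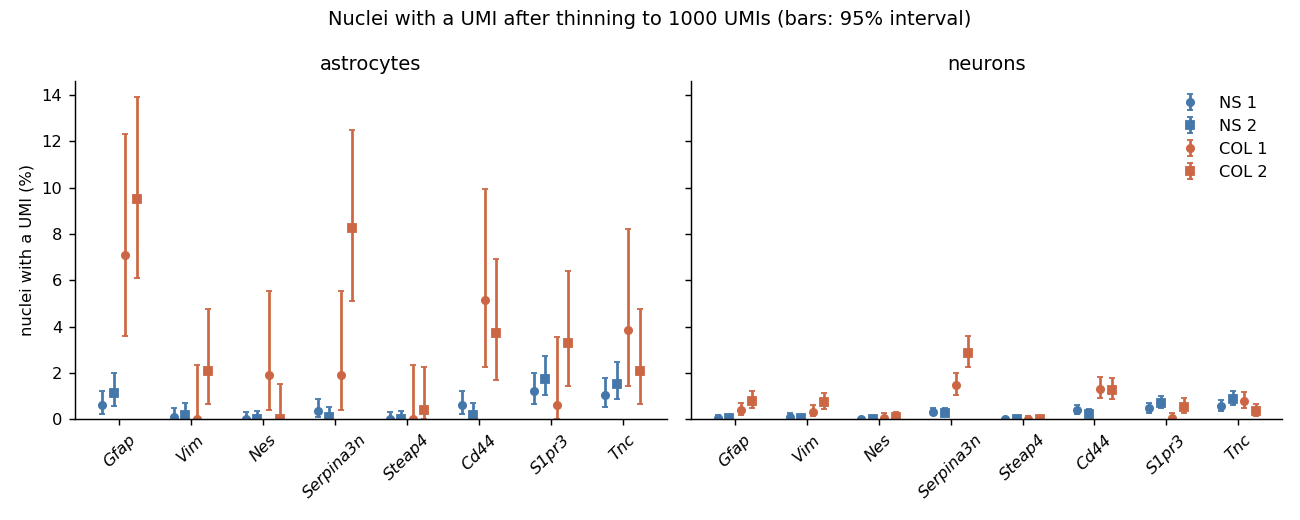
Share of astrocytes (left) and neurons (right) with at least 1 UMI of each gene after thinning every nucleus to 1000 UMIs (percent, with exact Clopper-Pearson 95% intervals for counting error only), for NS (blue) and COL (orange) libraries. *Gfap* reached 7.1% and 9.5% of COL astrocytes against 0.395% and 0.785% of COL neurons.

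Astrocytes of the COL group also more often held several of the genes. Summed over the 8 genes and thinned to 2000 UMIs per nucleus, 92% and 92.7% of NS astrocytes had none of them, against 73.9% and 63.6% of COL astrocytes. UMIs of at least 3 of the 8 genes were found in 0 NS astrocytes and in 3 of 153 and 6 of 242 COL astrocytes. Without thinning, 45.9% and 26% of COL astrocytes with a *Gfap* UMI also had a *Cd44* UMI, against 6.72% and 12.4% of those without *Gfap*. After thinning to 2000 UMIs the *Cd44* shares were 14.3% and 11.8% against 7.19% and 4.81%. For *Serpina3n* they were 21.6% and 37% against 14.3% and 34.3% without thinning, and 7.14% and 11.8% against 5.04% and 16.8% after it, so that COL 2 ran the other way. Deeper nuclei show more genes of any kind, so these paired shares are given as values with no test.

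**Figure D4:**
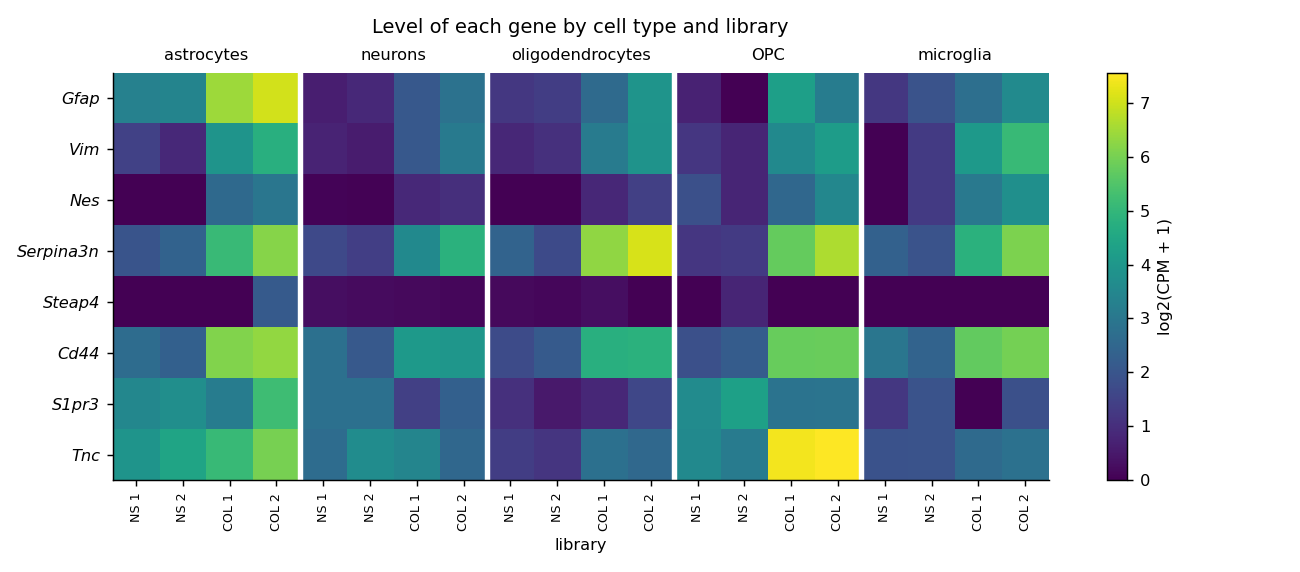
Level of each gene, as log2(CPM + 1), in the 5 cell types for which each library held 20 nuclei or more, 4 libraries per type. *Gfap* was brightest in COL astrocytes, *Tnc* in COL OPC (171 and 187 CPM) and *Serpina3n* in COL oligodendrocytes (77.9 and 135 CPM).

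Across the cell types, the genes differed in where they were found. Compared with all other nuclei in the same libraries, *Gfap* was higher in astrocytes by a log2 difference of 3.67 ± 0.18, *S1pr3* by 1.78 ± 0.32 and *Tnc* by 1.47 ± 0.19. *Vim* (0.68 ± 0.24), *Cd44* (0.63 ± 0.17) and *Serpina3n* (0.54 ± 0.18) were higher by less, and all 6 passed the test (edgeR adjusted p from 5.25e-11 for *Gfap* to 0.0308 for *Vim*), where 19.5% of 22157 genes were higher in astrocytes. *Nes* had a difference of 1.09 ± 0.52 (adjusted p = 0.101). In the COL group it averaged 5.93 ± 1.31 CPM (SD, n = 2) in astrocytes, 7.46 ± 3.89 CPM in OPC and 9.9 ± 3.78 CPM in microglia. Neurons had 0.914 ± 0.134 CPM and oligodendrocytes 1.23 ± 0.639 CPM of it. The few endothelial cells averaged 120 ± 169 CPM in NS and 110 ± 83.8 CPM in COL. Microglia held 1 *Nes* UMI in NS and 39 in COL, a ratio of 15.2 (95% counting interval 2.57 to 616). With astrocytes taken from clusters, *Vim* (-0.19) and *Cd44* (-0.50) changed direction, *Serpina3n* had 0.40 (adjusted p = 0.0832), and none of these 3 was called. The same 3 calls were lost without COL 2. Under the stricter marker rule 5 of 7 tested genes were higher in astrocytes, where 4026 of 22346 genes were. A call was also lost without NS 1.

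*Gfap* was the gene most closely tied to astrocytes in level. In the COL group it averaged 109 ± 31.8 CPM (SD, n = 2) in astrocytes and 13.1 ± 7.07 CPM in OPC, and it lay at 5.15 and 14.1 CPM in oligodendrocytes, 5.78 and 11.3 CPM in microglia and 3.23 and 6.24 CPM in neurons. Of these 4 types, OPC (18.1 and 8.06 CPM) lay above neurons, the other pairs overlapped, and none overlapped astrocytes. Astrocytes held 20.6% and 26.7% of all *Gfap* UMIs of the COL libraries while being 2.63% and 3.86% of the nuclei. Neurons held 36.9% and 30.3% of them at 47% and 40.7% of the nuclei. In the NS libraries, *Gfap* in neurons was at 0.555 and 0.843 CPM.

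Of the 5 tested types, *Serpina3n* was highest in COL oligodendrocytes, at 77.9 and 135 CPM against 4.3 and 2.23 CPM in NS. In OPC it was at 1.28 and 1.42 CPM in NS and 53.4 and 98.3 CPM in COL, and in microglia at 4.09 and 2.84 CPM against 27.5 and 65.5 CPM. Within each COL library OPC lay above astrocytes (34 and 72.1 CPM) and microglia below them. Neurons had 2.2 and 1.64 CPM in NS and 11.1 and 27.6 CPM in COL, below the other 4 tested types of the same COL library. Within each of the 5 types, COL 2 was higher than COL 1.

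Of the 5 tested types, *Tnc* was highest in OPC of the COL group, at 171 and 187 CPM against 10.9 and 7.82 CPM in NS OPC. Astrocytes of the COL group (33 and 62.9 CPM) lay below them, and oligodendrocytes, microglia and neurons were at 4.8 to 9.83 CPM. Endothelial cells, too few to be tested, held 108 *Tnc* UMIs in 4 nuclei of COL 1 (2040 CPM) and 0 in the other libraries. *Cd44* in the COL group was at 54.2 and 55.3 CPM in OPC and 52.8 and 61.6 CPM in microglia, just below astrocytes, with oligodendrocytes at 26.1 and 27.1 CPM. Macrophages, almost absent from the NS libraries (0 and 4 nuclei) and numbering 111 and 129 in COL, had 629 and 520 CPM of *Cd44* and 227 and 250 CPM of *Vim*, above the 5 tested types. *S1pr3* was at 11.5 and 18.5 CPM in NS and 6.28 and 6.45 CPM in COL OPC, and the few pericytes and fibroblasts (16 to 29 per library) held 30.2 to 112 CPM of it.

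Changes between COL and NS were tested in each of the other types in the same way. In oligodendrocytes, which make myelin, 5 of 6 tested genes were higher in the COL group, where 9.78% of 17114 genes were: *Serpina3n* by a log2 fold change of 5.15 ± 0.34, *Vim* by 3.54 ± 0.41, *Cd44* by 3.27 ± 0.27, *Gfap* by 2.75 ± 0.50 and *Tnc* by 2.01 ± 0.38. As in astrocytes, different Seurat clusters held most of these nuclei in the NS and COL groups: clusters 1 and 7 against 3 and 12 for oligodendrocytes, 15 against 11 for OPC and 13 against 10 and 23 for microglia. In OPC, the dividing precursors of oligodendrocytes, 5 of 6 were higher as well, where 7.66% of 11991 genes were. There *Serpina3n* rose by 5.80 ± 0.47, *Tnc* by 4.29 ± 0.23 and *Cd44* by 4.19 ± 0.35 on the log2 scale. *Gfap* had 1 UMI in NS and 38 in COL OPC, a ratio of 36 (95% counting interval 6.08 to 1460), and *Vim* 3 and 46 UMIs, a ratio of 14.5 (4.67 to 73), while *S1pr3* had -1.17 ± 0.45 (edgeR adjusted p = 0.088). In microglia, the resident immune cells, 3 of the 8 genes could be tested and were called higher, where 12.6% of 11491 genes were. The log2 fold change was 3.77 ± 0.60 for *Serpina3n* and 3.38 ± 0.39 for *Cd44*, and *Vim* had 1 UMI in NS and 99 in COL microglia, a ratio of 38.6 (95% counting interval 6.77 to 1540). The filter lay at 6.73 CPM in OPC and 9.45 CPM in microglia. *Gfap*, *Vim*, *Serpina3n* and *Cd44* in OPC, all 3 tested genes in microglia and *Vim* in oligodendrocytes passed it only through the COL group, and *S1pr3* in OPC only through the NS group, so the counts in these types are a description. Under a stricter marker rule only 3 genes could be tested in OPC and 1 in microglia, and all were called higher. There, 572 of 8933 genes were higher in OPC and 988 of 7465 in microglia.

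In neurons, edgeR called 0% of 23535 genes, and 0 of 7 tested genes of the set, although 6570 genes had an unadjusted p under 0.05 and DESeq2 called 2368 genes, 5 of them in the set. The count of 0 rested on the libraries and settings used: edgeR called 520 genes and 5 of the set without COL 1, 5680 genes and 6 of the set without COL 2, 1906 genes and 5 of the set without the filter on low counts, and 647 genes and 5 of the set with a replicate block. The members called were higher in the COL group, except *S1pr3*, which was lower without COL 2 (-1.59 ± 0.31, adjusted p = 0.00829). The log2 fold changes in neurons were 3.46 ± 0.41 for *Serpina3n*, 3.32 ± 0.46 for *Vim*, 2.90 ± 0.42 for *Gfap* and 1.91 ± 0.29 for *Cd44* (edgeR adjusted p = 0.112 each), from levels of 16 CPM or less in neurons apart from *Serpina3n*. *Tnc* had -0.04 ± 0.54 and *S1pr3* had -0.95 ± 0.37 (adjusted p = 0.167). In astrocytes *Lyz2*, a lysozyme of macrophages, averaged 0.925 CPM in NS and 37.4 CPM in COL, while the 10 microglial markers summed to 126 and 155 CPM in NS and 104 and 164 CPM in COL. The part of free RNA in these changes was not tested.

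**Figure D5:**
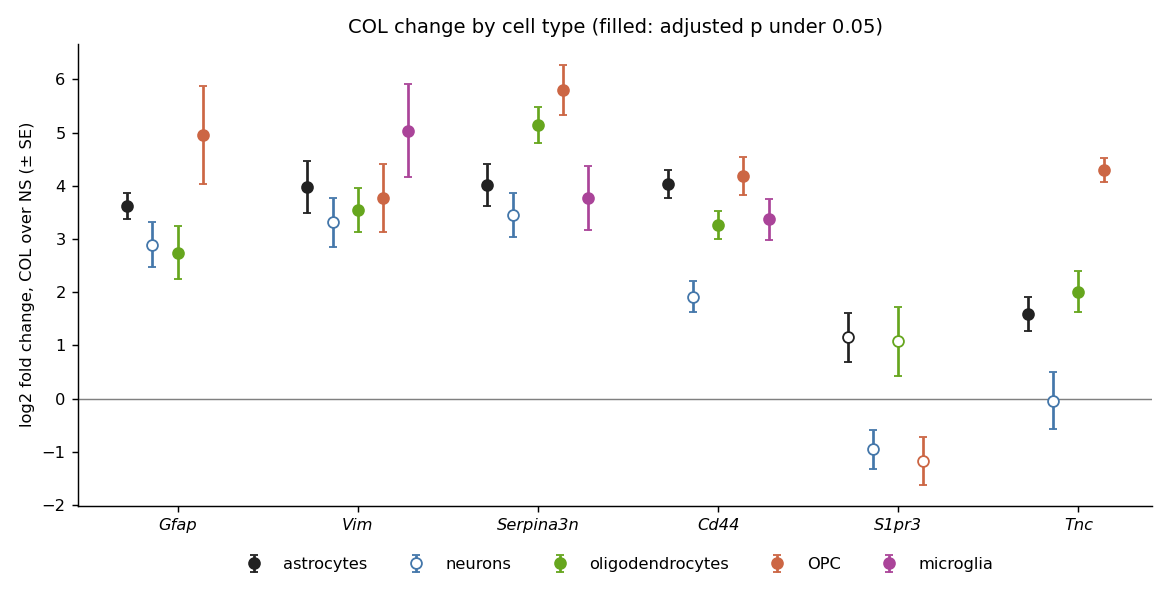
Log2 fold change of COL over NS (± SE, edgeR) for 6 genes in each cell type that could be fitted, with filled points for an adjusted p under 0.05; *Nes* and *Steap4*, with NS astrocytes at 0 UMIs, are left out, and the points for *Gfap* in OPC and *Vim* in OPC and microglia rest on 1 to 3 UMIs in the NS group. *Gfap*, *Vim*, *Serpina3n* and *Cd44* lay above 0 in every type fitted, and *Tnc* ran from -0.04 in neurons to 4.29 in OPC.

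Whether the change in astrocytes differed from that in another type was tested directly, with the library as a block. Against neurons, the change in astrocytes was larger for *Cd44* (2.24 ± 0.30), *S1pr3* (1.99 ± 0.38) and *Tnc* (1.76 ± 0.31), with edgeR adjusted p from 4.17e-08 to 0.000155, where 3.89% of 23084 genes differed. The difference was 0.74 ± 0.35 for *Gfap* (adjusted p = 0.33) and 0.59 ± 0.36 for *Serpina3n* (adjusted p = 0.53), so a larger fold change of *Gfap* in astrocytes than in neurons was not shown although its level differed greatly. With astrocytes taken from clusters, 0 of the 3 calls against neurons was left, and without COL 2 only 1.

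Against OPC, the change of *Tnc* was smaller in astrocytes, by -2.71 ± 0.34 (edgeR adjusted p = 5.15e-07), and that of *S1pr3* was larger, by 2.26 ± 0.51 (adjusted p = 0.00454), where 3.23% of 13708 genes differed. *Serpina3n* had a difference of -1.87 ± 0.66 (adjusted p = 0.137). The call for *S1pr3* was lost without COL 2 (0.67), without NS 1 (2.41, adjusted p = 0.0812) or with astrocytes taken from clusters (0.15). With clusters, *Cd44* (-2.27 ± 0.47, adjusted p = 0.0128) and *Serpina3n* (-2.57 ± 0.61, adjusted p = 0.0299) also changed less in astrocytes than in OPC. Against oligodendrocytes 0 of 7 genes passed, where 3.81% of 17828 genes did, and *Serpina3n* had a difference of -1.13 ± 0.40 (adjusted p = 0.117). With clusters the change of *Tnc* was smaller in astrocytes than in oligodendrocytes, by -2.20 ± 0.45 (adjusted p = 0.000852). Against microglia 0 of 7 passed, where 7.09% of 14238 genes did. By an unadjusted p under 0.05, 2390 of the genes differed against oligodendrocytes and 2530 against microglia.

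Genes known to act beside the 8 in reactive astrocytes, listed with earlier results of these data known, were read from the same fit in astrocytes. Of the 7 further pan-reactive genes, 4 could be tested and all 4 were called higher, where 7.11% of all genes were, with a median log2 fold change of 4.71 against -0.02 over all genes. In this list and the next ones, a gene under the filter in the NS group could be tested only if it was high in the COL group, so their counts and medians are a description; here this held for *Lcn2* and *Osmr*. *Lcn2*, the secreted iron carrier lipocalin 2, had 0 UMIs in both NS libraries and 19 and 16.6 CPM in COL. This was 47-fold above a floor of 3 UMIs over the NS group, with COL counting error left out. *Osmr*, the oncostatin M receptor, went from 0.443 and 0.563 CPM to 11 and 24.6 CPM (log2 fold change 5.18 ± 0.60), *Cp*, the copper oxidase ceruloplasmin, from 5.09 and 5.91 CPM to 57 and 134 CPM (4.23 ± 0.38), and *Aspg*, an asparaginase, from 5.98 and 9 CPM to 43 and 50.3 CPM (2.73 ± 0.29). *Cp* was not called with astrocytes taken from clusters. In neurons *Lcn2* was at 0.525 and 1.44 CPM and *Cp* at 3.19 and 3.94 CPM in the COL libraries.

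The lists that divide reactive astrocytes into A1, linked to inflammation, and A2, linked to ischaemia, were both represented. Of 11 A1 genes 6 were tested, of which 2 rose and 1 fell, where 7.11% and 8.42% of all genes did, with a median of 1.27. *Iigp1* passed the filter only through the COL group and *Amigo2* only through the NS group. *Fkbp5*, a glucocorticoid-induced chaperone, rose from 5.76 and 5.34 CPM to 21 and 50.3 CPM (log2 fold change 2.81 ± 0.38), *Iigp1*, an interferon-induced GTPase, had 3 UMIs in NS and 26 in COL, a ratio of 25.5 (95% counting interval 7.8 to 131), and *Amigo2*, an adhesion molecule, fell from 9.74 and 8.16 CPM to 2 and 1.14 CPM (-2.52 ± 0.58). The call for *Amigo2* rested on 4 UMIs in the COL group and was lost under 5 of 13 alternatives. Of 12 A2 genes 4 were tested and 3 rose, where 7.11% of all genes did, with a median of 3.42. *Clcf1*, a cytokine of the interleukin 6 family, had 0 UMIs in NS and 9 and 7 UMIs in COL. This was 15.7-fold above a floor of 3 UMIs over the NS group, with COL counting error left out. *Cd109*, a membrane protein that binds TGF-β, went from 0.886 and 1.13 CPM to 9.01 and 16.6 CPM. *Tgm1*, a transglutaminase, went from 4.43 and 3.94 CPM to 37 and 32 CPM. *Clcf1* and *Cd109* passed the filter only through the COL group. *Clcf1* and *Iigp1* were not called by DESeq2, and *Tgm1* was not called with clusters.

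Of 19 regulators and scar genes, all tested, 8 rose and 3 fell, where 7.11% and 8.42% of all genes did, with a median of 0.41. *Lgals3*, *Thbs1*, *Socs3* and *Anxa2* passed the filter only through the COL group. *Stat3* rose by a log2 fold change of 1.49 ± 0.19 (edgeR adjusted p = 0.00142), and its inhibitor *Socs3*, from 4 and 0 UMIs in NS and 4 and 11 UMIs in COL, by 3.40 ± 0.83 (adjusted p = 0.0202). The call for *Socs3* was lost under 4 of 9 alternatives: DESeq2 and without COL 1, NS 1 or NS 2. Its log2 fold change ran from 2.64 to 6.505 with each library left out in turn. *Stat3* in neurons was at 39.7 and 40.6 CPM in NS and 82.1 and 78.6 CPM in COL, and the groups did not overlap there either. *Lgals3* (galectin 3) had 2 UMIs in NS and 56 in COL, a ratio of 82.3 (95% counting interval 21.7 to 696), with 5.06 and 10.9 CPM in COL neurons against 12 and 25.2 CPM in COL astrocytes. *Thbs1*, the matrix protein thrombospondin 1, rose by 3.98 ± 0.60, *Anxa2*, a membrane-binding annexin, by 2.97 ± 0.48 and *S100a6*, a calcium-binding protein, by 1.52 ± 0.35. Astrocytes had 0.443 and 1.13 CPM of *Thbs1* in NS and 15 and 9.72 CPM in COL. Macrophages had 899 CPM of it, against 8.11 CPM over all other nuclei, and the part of macrophage RNA in its rise was not tested. *Cryab*, a small heat shock protein abundant in oligodendrocytes, fell by 1.56 on the log2 scale (SE 0.38), from 64.9 and 115 CPM to 15 and 39.5 CPM. The 11 oligodendrocyte markers in these astrocytes were also lowest in COL 1, and their part in this change was not tested. The call for *Cryab* was lost without COL 1, and that for *S100a6* without COL 2 or without NS 1. The others that fell were *Fabp7* (-1.47 ± 0.37, edgeR adjusted p = 0.0234) and *Ncan* (-0.79 ± 0.19, edgeR adjusted p = 0.0211). The transcription factors *Sox9* (-0.11 ± 0.20) and *Nfia* (0.28 ± 0.16) and the receptor *Il6st* (0.41 ± 0.18, adjusted p = 0.157) did not pass.

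Of 15 partners of *Cd44* and *Tnc* 9 were tested, 4 rose and 0 fell, where 7.11% and 8.42% of all genes did, with a median of 0.63. *Has2*, *Spp1* and *Tlr4* passed the filter only through the COL group, so that direction was partly fixed by the filter. *Spp1*, the CD44 ligand osteopontin, went from 0.443 and 3.66 CPM to 18 and 70.3 CPM (log2 fold change 4.67 ± 0.69, edgeR adjusted p = 0.00253), with 11.7 and 37.2 CPM in COL neurons. Leaving out each library in turn gave *Spp1* log2 fold changes from 3.294 to 6.678 in astrocytes. *Has2*, which makes the CD44 ligand hyaluronan, had 3 UMIs in NS and 52 in COL, a ratio of 50.9 (95% counting interval 16.5 to 255). *Tnr*, tenascin R and also one of the OPC markers used to name nuclei, rose from 73.5 and 79 CPM to 185 and 191 CPM (1.37 ± 0.16). *Tlr4*, an innate immune receptor, had 1.5 ± 0.45 (adjusted p = 0.0453), a call lost under 7 of 12 alternatives.

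Of 11 genes of sphingosine 1-phosphate signalling 7 were tested and only *S1pr1* passed, where 15.5% of all genes did, with a median of -0.03. *S1pr1*, the main receptor of this family in resting astrocytes, fell from 102 and 122 CPM to 46 and 69.2 CPM (log2 fold change -0.86 ± 0.22, edgeR adjusted p = 0.0227), a call lost without COL 1 or without NS 2. Of 14 relatives of *Steap4* and *Serpina3n* and their partners, 12 were in the count tables and 4 could be tested, and 0 were called; *Steap3* had 0.59 ± 0.32 (adjusted p = 0.243) and *Steap2* -0.16 ± 0.38 (adjusted p = 0.817). Of 14 support genes of resting astrocytes 3 fell, where 8.42% of all genes did, and 0 rose, with a median of -0.30. They were *S1pr1*, the GABA transporter *Slc6a11* (1340 and 1070 CPM in NS, 738 and 698 CPM in COL, -0.68 ± 0.16) and the glycine transporter *Slc6a9* (193 and 197 CPM in NS, 90.1 and 125 CPM in COL, -0.78 ± 0.18). The call for *Slc6a11* was lost with clusters, without NS 1 or without NS 2, and that for *Slc6a9* after thinning, without COL 1 or without NS 2. *Glul*, glutamine synthetase, had 0.15 ± 0.17 (adjusted p = 0.595).

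The genes whose levels followed each of the 8 most closely were sought over 20 sums (5 cell types in 4 libraries) among 10750 genes, as a description with no p, since the sums share libraries and depth. *A2m*, the protease inhibitor alpha-2-macroglobulin, was nearest to *Gfap* (Pearson r = 0.892), and averaged 19.4 CPM in NS and 191 CPM in COL astrocytes. *Gpnmb* and *Hmox1*, known from phagocytes, were the 2 nearest genes to both *Vim* (0.956 and 0.955) and *Cd44* (0.943 and 0.941). *Bcl3* (0.935), *Lyz2* (0.93) and *Cd74* (0.925) were nearest to *Serpina3n*. *Fyn* (0.868) and *Hmga2* (0.845) were nearest to *Tnc*, *Extl1* (0.903) to *S1pr3* and *2700049A03Rik* (0.908) to *Nes*. For *Steap4* no gene exceeded 0.592.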

How the data were processed

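Thalamic nuclei of 4 libraries were profiled on the 10x Chromium system. Per the labels, reads were processed by the submitters with Cell Ranger 1.2.0 against mm10, and the deposited values are UMI counts per gene and nucleus with no normalization. Whether intronic reads were counted is not given in the sources used here. Barcodes with more than 50 genes and under 5% mitochondrial UMIs, the study's filter, were kept: 32291 of 32332, with 8 to 31 barcodes shared between pairs of libraries. The 8 genes and all gene lists were chosen with earlier results of these data known.

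Each nucleus was named from 112 markers of 11 cell types by a negative binomial likelihood (dispersion 0.5), starting from nuclei with clear marker patterns. Only 9 types had the 10 starting nuclei needed, so no nucleus could be named an ependymal or choroid plexus cell. Nuclei fitted better by the average of a pair of types were called mixed (10.3%) and those with a lead under 2 log units or fewer than 3 markers unnamed (1.13%); 43 and 47 COL and 198 and 180 NS nuclei nearest to astrocytes were left out as mixed. The rule was written after the nuclei had been seen. Doublets were not removed in the main analysis, and a neighbour-based caller was an alternative.

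Counts were summed per library and type and tested with edgeR (quasi-likelihood, TMM, filterByExpr, Benjamini-Hochberg over all genes, threshold 0.05), in types for which each library held 20 nuclei or more. Differences between types used an interaction term with the library as a block. Alternatives were DESeq2, leaving out each library, a replicate block, keeping genes of low counts, other nucleus filters, Seurat clusters, a stricter marker rule and thinning to 2000 UMIs. Fits were tested on simulated data. Named genes were the 8 genes, at most 6 called genes per list with the largest absolute log2 fold change, list genes related to one of the 8 and the 3 nearest genes of each by correlation. *Stat3*, *Sox9*, *Nfia*, *Il6st*, *Fabp7*, *Ncan* and *Glul* were named from their lists after their values were seen. Intervals cover counting error only. Versions were R 4.3.3, edgeR 4.0.16, DESeq2 1.42.0, Seurat 5.3.0, Python 3.11.15 and scipy 1.17.1.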

Additional observations from a re-analysis of the deposited data

Results flagged for a closer look

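By the interaction test, the COL change of 3 of 7 tested genes differed between astrocytes and neurons, where 3.89% of 23084 genes did. The difference was 2.24 on the log2 scale for *Cd44*, 1.76 for *Tnc* and 1.99 for *S1pr3*, all larger in astrocytes. With astrocytes taken from clusters none of these 3 was called (0.45, -0.29 and 0.48), and without COL 2 only *Cd44* was (1.98, against 0.57 for *Tnc* and 1.19 for *S1pr3*). Against OPC, the COL change in astrocytes differed by -2.71 for *Tnc* and by 2.26 for *S1pr3*, where 3.23% of 13708 genes differed. The *Tnc* difference from OPC had the same direction and was called under all 8 alternatives fitted, while the *S1pr3* difference was not called without COL 2 (0.67), without NS 1 (2.41) or with clusters (0.15).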

How the results depend on the processing

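Of 895 alternative values, 794 kept the direction and the side of the threshold, or stayed within 1.5 times a count. Shares of nuclei were judged by their direction only. *Gfap*, *Cd44*, *Vim* and *Serpina3n* were called higher in astrocytes under all 13 alternatives, a description, since the share of all genes called so is not given here. Doublet removal, the 500-gene filter and no mitochondrial filter left 155 or 156 astrocytes in COL 1 and 242 in COL 2, so they tested little. In the main fit *Vim* and *Serpina3n* passed the filter on low counts only through the COL group. DESeq2 called 1084 genes in astrocytes, 732 in OPC, 1503 in microglia and 2368, with 5 of the 8 genes, in neurons. Without the filter on low counts, 1906 of 38349 genes and 5 of the 8 were called in neurons. In microglia 3586 of 24925 genes and 5 of the 8 were called. Thinning to 2000 UMIs left 1234 genes in astrocytes and 942 in OPC, with 3 of the 8 there, and turned the difference in *S1pr3* shares to -0.287 percentage points. The stricter marker rule left 1169 genes and 3 of the 8 in OPC and 2033 genes and 1 of the 8 in microglia. It left 616 genes that differed between astrocytes and microglia. With Seurat clusters, 0 of the 8 differed from neurons, where 780 of 23117 genes did, and 1 from oligodendrocytes, where 594 of 17577 did. With them 3 of the 8 were higher than in all other nuclei, where 4356 of 22087 genes were. The values with clusters were -0.40 for *S1pr3* and -0.27 for *Tnc* in astrocytes, and -0.29 for the *Tnc* difference from neurons. They were -0.19 for *Vim* and -0.50 for *Cd44* against all other nuclei, and -0.749 percentage points for *S1pr3* shares. The cause was not tested. *Nes* had too few UMIs to be tested without either COL library, with clusters, under the stricter rule or after thinning.

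Leaving out each library in turn gave 1371 to 2190 genes in astrocytes, 0 to 5680 genes and 0 to 6 of the 8 in neurons (520 genes without COL 1, 5680 without COL 2), 2183 to 7036 genes in oligodendrocytes, 1117 to 2914 in OPC and 1969 to 3466 in microglia. Between astrocytes and other types it gave 441 to 711 genes and 1 to 4 of the 8 for neurons, 250 to 561 genes and 0 to 1 for oligodendrocytes, 145 to 467 genes and 1 to 2 for OPC and 500 to 788 genes for microglia, and 3 to 6 of the 8 against all other nuclei. The *S1pr3* log2 fold change ran from -0.41 to 1.71, the difference in *Vim* shares from -0.14 to 1.93 and in *S1pr3* shares from -0.831 to 1.83 percentage points. With 1 library left in a group, it was assumed to vary like the other group.

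The labels number the libraries 1 and 2 in both groups, and equal numbers correlated weakly in their deviations from the group means (r = 0.137 in astrocytes, 0.053 to 0.16 in the other types), so with 2 pairs the numbers were not taken to pair libraries. A replicate block called 3230 genes and 7 of the 8 in astrocytes, with *S1pr3* added (log2 fold change 0.94, adjusted p = 0.0311), and 647 genes and 5 of the 8 in neurons.

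*Nes* and *Steap4* had 0 UMIs in NS astrocytes. For any gene, 3 UMIs in an NS library's astrocytes correspond to 0.664 or 0.844 CPM.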
